A study of Homo sapiens with 27 samples.

Results

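The guanylate-binding proteins GBP1, GBP2, GBP3, GBP4 and GBP5 and the apolipoprotein L genes APOL1, APOL2, APOL3 and APOL6 were followed through a killing challenge and a recovery period in human colorectal cancer cells. These 9 genes, 5 GBP and 4 APOL, were taken by gene symbol from the deposited table, and all 9 had a row among its 17687 named genes. The study measured total RNA of the lines LIM1215, SW48 and Caco2 on 27 single-colour Affymetrix whole-transcript arrays, 3 for each of 9 groups. Parental cells are the unchallenged line, which the labels describe as cultured from a single clone, so each line stands for 1 clone. Resistant cells had survived 20 cycles of attack by NK-CD16 cells (natural killer cells with the antibody receptor CD16) in the presence of the anti-EGFR antibody cetuximab at 1 ug/ml. Withdrawal cells are resistant cells taken through 20 more cycles untreated. LIM1215 was grown in RPMI with serum, hydrocortisone and insulin, SW48 in RPMI with serum and Caco2 in Eagle's MEM with serum. Whether the 3 replicates of a group are separate cultures is not given in the sources used here, so p-values measure the spread between these samples, which may be technical.

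GBPs are large GTPases that cells make in response to interferon, above all interferon gamma, a cytokine that activated NK and T cells release. They bind GTP, assemble into coats on bacteria and on the vacuoles that hold them, and bring inflammatory caspases to that surface. GBP1 binds bacterial lipopolysaccharide directly and recruits GBP2, GBP3 and GBP4 to the coat, and GBP1, GBP2 and GBP5 carry a lipid at the carboxyl end that anchors them to membranes. APOL proteins bind lipids and can open membranes. APOL1 is secreted and lyses trypanosomes, APOL2, APOL3 and APOL6 stay inside the cell, and APOL3 breaks up the membranes of bacteria that a GBP coat has uncovered. Intestinal epithelial cells can make both families when exposed to interferon gamma.

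The GBP genes lie side by side on chromosome 1 and the APOL genes on chromosome 22. Promoter sequences from RefSeq (GRCh38.p14, 250 bases before to 50 after the start of the gene) were matched for 3 of the 9 genes, GBP1, GBP3 and GBP4. Each was searched on both strands for the core of the interferon-stimulated response element, GAAANNGAA, which is bound by IRF factors, and for the gamma-activated site, TTCNNNGAA, a sequence of genes that respond to interferon gamma. The stretches around the matches that lie before the start or within its first 25 bases are shown because they put these letters beside the genes whose changes follow. All 3 lie on the minus strand and are written 5′ to 3′ along the gene, with the matches in capitals. The first spans positions -146 to -98 from the start, at chr1:89065306-89065354, the second -35 to 25, at chr1:89022842-89022901, and the third -23 to 25, at chr1:89198918-89198965.
GBP1: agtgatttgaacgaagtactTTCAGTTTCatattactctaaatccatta
GBP3: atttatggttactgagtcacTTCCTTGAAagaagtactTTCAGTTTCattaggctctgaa
GBP4: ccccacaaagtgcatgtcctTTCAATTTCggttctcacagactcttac
The response element core was matched in all 3 promoters, on the strand opposite to the gene at -126 in GBP1, at 4 in GBP3 and at -3 in GBP4, with a further match on the gene's own strand at 38 in GBP1 (GAAAAAGAA), outside the stretch shown. The gamma-activated site was matched in 1 of the 3, at -15 in GBP3. The promoters of GBP6 and GBP7, which are outside the 9 genes, were searched as well and held neither motif. Of all 35116 promoters in the table, 8.11% held the response element core and 7.66% the gamma-activated site. GBP1 and GBP3 shared 19 bases around the match, gaagtactttcagtttcat, at -134 to -116 in GBP1 and at -5 to 14 in GBP3. Neither motif overlapped the other in these 3 windows, and a match describes letters and not binding.

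Values are deposited intensities read here as log2, and a change is a difference of group means on that scale. A group mean under the 95th percentile of the 612 negative control probe sets of its arrays is called near background. That level was 6.56 to 8.19 on the arrays, and 43.4% to 53.5% of all genes lay above it. Negative controls had medians of 2.96 to 3.73, so a value near background can still differ between groups. Of the 9 genes, 4, 7 and 3 lay above background in parental, resistant and withdrawal LIM1215 cells, 1, 4 and 2 in SW48 cells and 0, 4 and 0 in Caco2 cells. Where 1 group of a pair is near background, a fold is given as a lower bound against that level ("at least"), and where both are, no fold is given. The distributions differed between lines, with gene medians of 7.9 to 8.05 in LIM1215, 6.43 to 6.54 in SW48 and 6.99 to 7.08 in Caco2, so levels were compared within a line. Correlations over all genes between arrays of a group were at least 0.9946 in 8 of 9 groups. Among the parental LIM1215 arrays they fell to 0.9871, where replicate 3 stood apart from the other arrays.

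Of the epithelial markers that check the labelled cell type, all 11 measured in LIM1215 (EPCAM, KRT8, CDH1, CDX2, VIL1 and others) lay above background in each state, and 9 did in Caco2. In SW48, 6 or 7 did, EPCAM, KRT8, KRT18, KRT19, CDH1 and CDX2 among them, while CDX1, VIL1, CDH17 and LGALS4 were near background. Markers of NK and T cells were also present in the resistant groups. The mean of the 23 measured (GNLY, GZMA, PRF1, PTPRC and others) was 3.85 to 3.88 on parental LIM1215 arrays, 7 to 7.32 on resistant arrays and 3.86 to 3.88 on withdrawal arrays. In SW48 it was 3.09 to 3.33, then 4.22 to 4.57, then 3.16 to 3.35. In Caco2 it was 3.27 to 3.37, then 6.08 to 6.36, then 3.18 to 3.25. Above background in resistant cells were 10 of these markers in LIM1215, 1 in SW48 (GZMA) and 8 in Caco2. In parental and in withdrawal cells there were 0 in LIM1215 and Caco2 and 1 in SW48 (PTPRC). PTPRC was near background in resistant SW48 cells. Of the 23, 20 rose from parental to resistant in LIM1215 (5.42% of all genes did) and 20 in Caco2 (12.9%). In SW48 14 rose and 1 fell (10.9% and 11.8% of all genes), with 22 of the 23 near background in resistant cells. GBP and APOL genes are also transcribed in NK cells, and the part of such RNA in the changes described here was not tested. In bulk RNA, more cells of a type and more RNA per cell cannot be told apart.

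Most GBP and APOL genes rose in the resistant cells of each line and fell after withdrawal. The rise did not pass for GBP3 and APOL2 in LIM1215 and APOL3 in Caco2, and the fall did not pass for GBP3 and APOL6 in LIM1215 and APOL3 in Caco2. From parental to resistant, 7 of 9 rose in LIM1215 (5.42% of all genes did), all 9 in SW48 (10.9%) and 8 of 9 in Caco2 (12.9%), and none fell. The median change of the 9 was 1.69 in LIM1215, 3.38 in SW48 and 4.44 in Caco2, against -0.028, -0.002 and -0.026 for all genes. All resistant arrays lay above all parental arrays for 7 of the 9 in LIM1215 (10.9% of all genes), for 9 in SW48 (17.2%) and for 9 in Caco2 (18.6%). With every value under background raised to that level, 4 of the SW48 rises passed the test (GBP3, APOL1, APOL2, APOL6), as did 4 in Caco2 (GBP1, APOL1, APOL2, APOL6), so the others there are changes among dim values. In LIM1215 6 then passed: GBP5 and APOL3 no longer did (0.39 each, adjusted p = 0.0807), and APOL2 did (0.54, adjusted p = 0.0409). Every LIM1215 array of GBP5 and APOL3 was under background, so their 0.39 is a difference of background level.

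**Figure D1:**
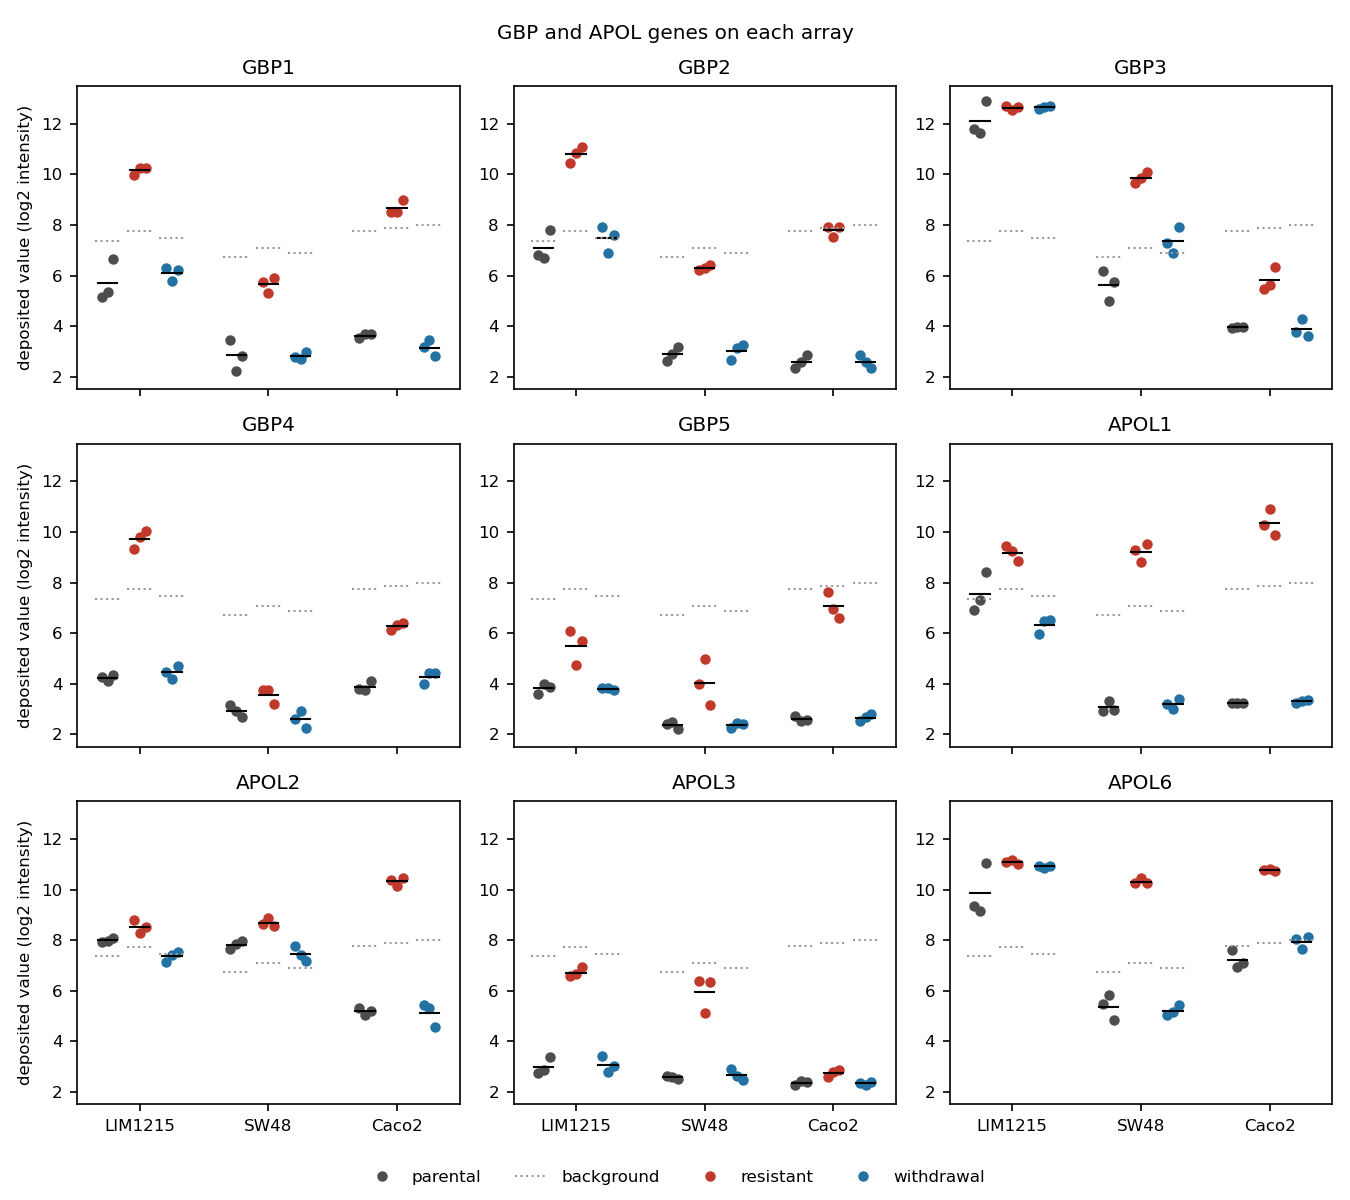
Deposited log2 intensity of each of the 9 genes on each of the 27 arrays (points, 3 per group; bars are group means, dotted lines the background level of the group). Resistant arrays sit above parental and withdrawal arrays in most panels, while in LIM1215 the withdrawal arrays read 12.59 to 12.69 for GBP3 and 10.86 to 10.95 for APOL6, close to the resistant arrays.

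GBP1, the family member that binds lipopolysaccharide and starts the coat, rose in all 3 lines. In LIM1215 it read 5.16, 5.34 and 6.65 in parental cells, 9.99, 10.24 and 10.25 in resistant cells and 6.28, 5.80 and 6.20 after withdrawal. In Caco2 it read 3.53, 3.68 and 3.67, then 8.53, 8.51 and 8.99, then 3.17, 3.44 and 2.80. Resistant arrays stood above all others in both lines. The rise from parental to resistant was 4.44 ± 0.302 (SE) in LIM1215, at least 6.98-fold (adjusted p = 1.94e-10), and 5.05 ± 0.302 in Caco2, at least 1.89-fold (adjusted p = 6.8e-12). In SW48 GBP1 read 3.46, 2.24 and 2.81, then 5.74, 5.31 and 5.91, then 2.79, 2.69 and 2.98, a rise of 2.82 between groups that are both near background (adjusted p = 2.11e-07).

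GBP2, which joins the GBP1 coat, followed the same course. Parental LIM1215 arrays read 6.82, 6.68 and 7.82, resistant arrays 10.47, 10.83 and 11.07, and withdrawal arrays 7.94, 6.90 and 7.61. The resistant arrays again lay above the other 6, with a rise of 3.68 ± 0.272 (SE), at least 9.21-fold (adjusted p = 7.87e-10). SW48 arrays read 2.62, 2.90 and 3.17, then 6.22, 6.28 and 6.40, then 2.66, 3.15 and 3.24. Caco2 arrays read 2.34, 2.58 and 2.87, then 7.92, 7.51 and 7.92, then 2.85, 2.59 and 2.35. The 3 resistant arrays of each line were distinct from the rest, and the rises of 3.40 in SW48 (adjusted p = 1.91e-09) and 5.18 in Caco2 (adjusted p = 6.94e-13) joined groups that are near background.

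GBP3, a further member of the coat, was already bright in LIM1215, where parental arrays read 11.81, 11.64 and 12.89, resistant arrays 12.69, 12.56 and 12.66 and withdrawal arrays 12.59, 12.68 and 12.69. Parental replicate 3 exceeded every other LIM1215 array, the groups overlapped, and the difference of 0.53 ± 0.308 (SE) between resistant and parental cells did not pass (adjusted p = 0.355). Without that array it was 0.92 (adjusted p = 0.0413). In SW48 GBP3 read 6.17, 4.98 and 5.75, then 9.67, 9.86 and 10.08, then 7.30, 6.91 and 7.92, so that the 3 states formed 3 separate levels. The SW48 rise was 4.24, at least 8.87-fold (adjusted p = 3.75e-10). Caco2 arrays, all near background, read 3.92, 3.97 and 3.97, then 5.46, 5.63 and 6.33, then 3.77, 4.30 and 3.6, a rise of 1.85 (adjusted p = 5.52e-05).

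GBP4, another protein of the coat, rose in all 3 lines from levels near background. LIM1215 arrays read 4.27, 4.10 and 4.34 in parental cells, 9.33, 9.82 and 10.06 in resistant cells and 4.48, 4.19 and 4.68 after withdrawal. The rise was 5.51 ± 0.207 (SE), at least 5.22-fold (adjusted p = 4.2e-15), with no overlap, and came to 2.38 with dim values raised to background. In SW48 all arrays were near background, at 3.16, 2.92 and 2.69, then 3.76, 3.74 and 3.19, then 2.59, 2.93 and 2.25. Resistant replicate 3 was barely above parental replicate 1, and the change of 0.64 passed (adjusted p = 0.0274) but not without parental replicate 3 (0.52, adjusted p = 0.131), parental replicate 2 (0.64, adjusted p = 0.0661), resistant replicate 1 (0.54, adjusted p = 0.117) or resistant replicate 2 (0.55, adjusted p = 0.113). Caco2 arrays, also near background, read 3.79, 3.76 and 4.09, then 6.11, 6.31 and 6.40, then 3.97, 4.44 and 4.44, a rise of 2.39 (adjusted p = 3.96e-09).

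GBP5, a prenylated GBP of the Golgi that hinders the maturation of viral envelope proteins, was near background in all 9 groups. LIM1215 arrays read 3.6, 3.98 and 3.87, then 6.10, 4.74 and 5.67, then 3.82, 3.83 and 3.76. SW48 arrays read 2.42, 2.49 and 2.21, then 4, 4.98 and 3.15, then 2.26, 2.46 and 2.42. Resistant arrays of both lines were spread over more than 1 log2 unit, yet all of them lay above the parental arrays. Caco2 arrays read 2.74, 2.53 and 2.58, then 7.63, 6.94 and 6.60, then 2.52, 2.67 and 2.78. The rises were 1.69 ± 0.329 (SE) in LIM1215 (adjusted p = 0.00089), 1.67 in SW48 (adjusted p = 0.000493) and 4.44 in Caco2 (adjusted p = 2.73e-10).

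APOL1, the secreted member that lyses trypanosomes, rose from near background in SW48 and Caco2. SW48 arrays read 2.90, 3.32 and 2.97 in parental cells, 9.27, 8.81 and 9.54 in resistant cells and 3.18, 2.99 and 3.40 after withdrawal. Caco2 arrays read 3.25, 3.22 and 3.25, then 10.27, 10.90 and 9.89, then 3.23, 3.32 and 3.35. In both lines the resistant cells stood more than 5 log2 units above either of the other states. The rise was 6.14 ± 0.288 (SE) in SW48, at least 5.59-fold (adjusted p = 1.82e-13), and 7.11 ± 0.288 in Caco2, at least 6.05-fold (adjusted p = 9.64e-15). These rises came to 2.48 and 2.6 with dim values raised to background. LIM1215 arrays started higher, at 6.90, 7.33 and 8.41, then read 9.43, 9.26 and 8.86, then 5.97, 6.49 and 6.5. There the rise of 1.64 was 3.11-fold (adjusted p = 0.000291), and the withdrawal arrays lay below every parental array. Of the parental arrays only replicate 3 lay above background, and without it the rise was 2.07 (adjusted p = 2.84e-06).

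APOL2, an intracellular APOL, was measured above background in parental LIM1215 and SW48 cells. LIM1215 arrays read 7.93, 7.97 and 8.07, then 8.79, 8.27 and 8.52, then 7.14, 7.40 and 7.54. The 3 states did not overlap in LIM1215, although the change of 0.54 ± 0.192 (SE) from parental to resistant did not pass (adjusted p = 0.0804). SW48 arrays read 7.64, 7.86 and 7.97, then 8.65, 8.88 and 8.54, then 7.76, 7.43 and 7.17, a rise of 0.87, 1.82-fold (adjusted p = 0.00159). Caco2 arrays read 5.31, 5.03 and 5.20, then 10.36, 10.16 and 10.45, then 5.42, 5.33 and 4.58. Here the rise was 5.15, at least 5.94-fold (adjusted p = 2.82e-15).

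APOL3, the member that acts with GBPs against bacterial membranes, was near background in every group. LIM1215 arrays read 2.75, 2.86 and 3.37, then 6.57, 6.65 and 6.92, then 3.43, 2.78 and 3.02. SW48 arrays read 2.61, 2.59 and 2.51, then 6.39, 5.12 and 6.33, then 2.91, 2.61 and 2.45. Resistant arrays of both lines were clear of the others, by rises of 3.72 ± 0.24 (SE) in LIM1215 (adjusted p = 7.35e-11) and 3.38 in SW48 (adjusted p = 2.46e-10). Caco2 arrays read 2.28, 2.41 and 2.38, then 2.59, 2.80 and 2.86, then 2.34, 2.25 and 2.40. The resistant Caco2 arrays were the highest 3, but the difference of 0.39 did not pass (adjusted p = 0.261).

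APOL6, an intracellular APOL that can promote apoptosis, rose in all 3 lines. SW48 arrays read 5.47, 5.81 and 4.84, then 10.25, 10.44 and 10.27, then 5.04, 5.15 and 5.45, a rise of 4.95 ± 0.319 (SE), at least 12.1-fold (adjusted p = 4.5e-11). Caco2 arrays read 7.62, 6.92 and 7.08, then 10.79, 10.83 and 10.72, then 8.03, 7.65 and 8.13, a rise of 3.57, at least 8.13-fold (adjusted p = 6.81e-09). In both lines the resistant arrays lay more than 2 log2 units above the others. LIM1215 arrays read 9.37, 9.16 and 11.07, then 11.10, 11.16 and 11, then 10.94, 10.86 and 10.95. Parental replicate 3 lay among the resistant arrays, and the LIM1215 rise of 1.22, 2.33-fold (adjusted p = 0.0128), did not pass without parental replicate 1 (0.97, adjusted p = 0.0865) or replicate 2 (0.87, adjusted p = 0.107), whereas without replicate 3 it was 1.82.

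**Figure D2:**
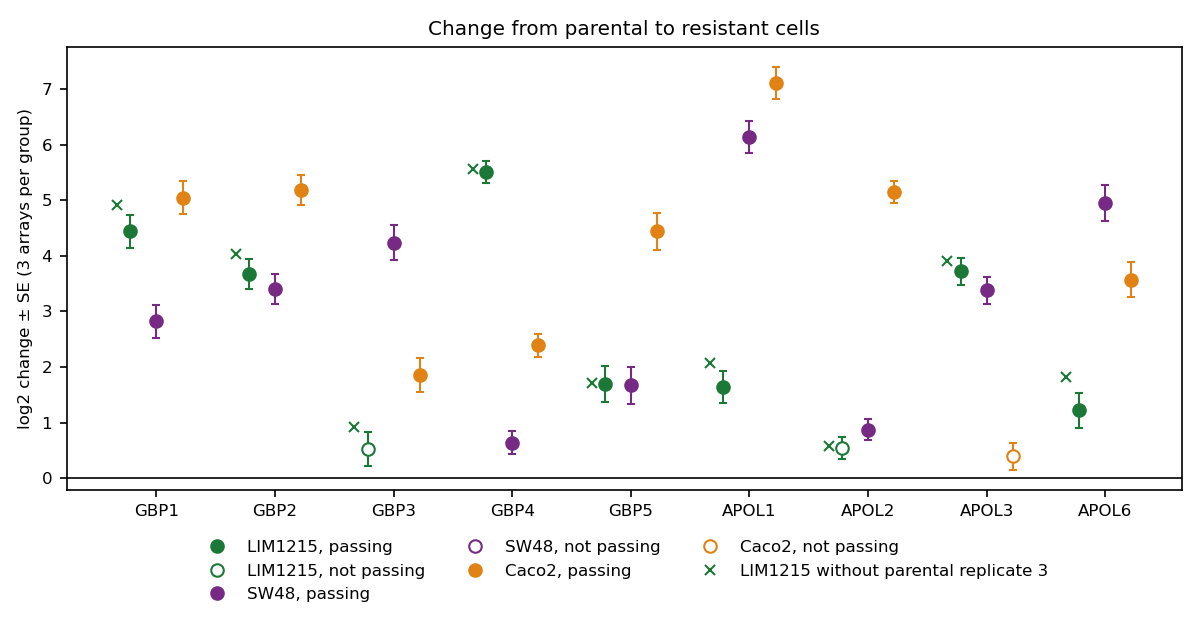
Change of each gene from parental to resistant cells on the log2 scale, with the SE of the fit (3 arrays per group) as bars; filled points passed at an adjusted p under 0.05, and crosses give LIM1215 without parental replicate 3. GBP3 and APOL2 in LIM1215 and APOL3 in Caco2 did not pass, and the order of rises from parental levels near background, such as those of APOL1 in SW48 and Caco2, is not a measured order of size.

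Which genes rose most differed between the lines, and the difference in change was itself tested. LIM1215 and SW48 differed for 5 of the 9 genes (18.3% of all genes differed), LIM1215 and Caco2 for 8 (21.3%), and SW48 and Caco2 for 8 (25.9%). With dim values raised to background these counts were 6, 6 and 2. GBP2 in LIM1215 minus SW48 went from 0.28 (adjusted p = 0.712) to 2.85 (adjusted p = 2.95e-09) in that setting. Every SW48 array of GBP2 was under background, so raising replaced its SW48 rise of 3.4 by a difference of background level, 0.36. GBP4 rose more in LIM1215 than in SW48, by 4.87 ± 0.293 (SE, adjusted p = 2.51e-11), and more than in Caco2, by 3.11 (adjusted p = 3.53e-08). APOL1 rose less in LIM1215 than in SW48 (-4.5 ± 0.407, adjusted p = 2.23e-08) or Caco2 (-5.48, adjusted p = 7.72e-10). APOL6 also rose less in LIM1215, by -3.73 ± 0.452 against SW48 (adjusted p = 1.97e-06) and by -2.35 against Caco2 (adjusted p = 0.000444). With dim values raised to background these 6 differences also passed, at 2.03 and 2.26 for GBP4, -1.08 and -1.19 for APOL1, and -2.38 and -1.8 for APOL6. Every SW48 and Caco2 array of GBP4 was under background. Its 2.03 and 2.26 thus set the raised LIM1215 rise against differences of background level.

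APOL2 showed a larger rise in Caco2 than in LIM1215 (LIM1215 minus Caco2 -4.61 ± 0.272, adjusted p = 1.77e-11) or SW48 (SW48 minus Caco2 -4.28, adjusted p = 5.61e-11). GBP3 rose more in SW48 than in LIM1215 (LIM1215 minus SW48 -3.71 ± 0.436, adjusted p = 1.27e-06) or Caco2 (SW48 minus Caco2 2.38, adjusted p = 0.000214). With dim values raised these differences also passed, at -2.03 and -1.7 for APOL2 and -2.62 and 3.02 for GBP3. For GBP3 every Caco2 array was under background, so 3.02 sets the raised SW48 rise against a difference of background level. APOL3 rose less in Caco2 than in LIM1215 (3.33 ± 0.34, adjusted p = 1.2e-07) or SW48 (2.98, adjusted p = 4.98e-07), which with dim values raised came to 0.26 and 0.23 and did not pass. For GBP1 the order depends on how dim values are treated: LIM1215 minus Caco2 was -0.61 and did not pass (adjusted p = 0.361), and turned to 1.88 with dim values raised (adjusted p = 1.42e-06). The larger Caco2 than LIM1215 rise of GBP2 (LIM1215 minus Caco2 -1.5) likewise turned, to 3 (adjusted p = 1.04e-09). With dim values raised, the larger Caco2 than LIM1215 rises of GBP5 (-2.76, then 0.26) and GBP3 (-1.33, then 0.4) did not pass. Nor did the larger Caco2 than SW48 rises of GBP2 (-1.78, then 0.15), GBP4 (-1.76, then 0.23) and GBP5 (-2.77, then 0.23). For GBP5 and APOL3 in each line, and for GBP4 in SW48 and Caco2, every array was under background. Their raised values are differences of background level and give no order of lines. APOL1 in SW48 against Caco2 (-0.97 ± 0.407, adjusted p = 0.0871) and GBP5 in LIM1215 against SW48 (0.02 ± 0.465, adjusted p = 0.992) did not pass.

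After the challenge ended most of these levels fell. From resistant to withdrawal cells 7 of the 9 genes were lower in LIM1215 (14.4% of all genes were), 9 in SW48 (11.1%) and 8 in Caco2 (12.5%), with median changes of -2.87, -2.84 and -4.4. APOL1 fell by 2.87 in LIM1215, at least 3.29-fold (adjusted p = 7.83e-08), fell by 6.01 in SW48, at least 5-fold (adjusted p = 2.57e-13), and fell by 7.05 in Caco2, at least 5.15-fold (adjusted p = 1.25e-14). GBP1 fell by 4.07 in LIM1215, at least 6.45-fold (adjusted p = 6.94e-10), and GBP4 fell by 5.29, at least 4.83-fold (adjusted p = 8.44e-15). GBP5 and APOL3 in LIM1215, and GBP1, GBP2, GBP4, GBP5 and APOL3 in SW48, were under background on every array. Raised to background, their falls came to -0.28 each in LIM1215 and -0.2 each in SW48 and did not pass. These values are differences of background level and give no direction. That setting left 5 falls passing in LIM1215 and 4 in SW48. In Caco2 the falls of GBP2, GBP3, GBP4 and GBP5 lie among dim values, and none passed when these were raised to background. For GBP3, GBP4 and GBP5 every Caco2 array was under background. Their raised value, 0.11 each, is a difference of background level and gives no direction. GBP3 and APOL6 in LIM1215 did not fall by a size that passed: GBP3 differed by 0.01 ± 0.308 (SE, adjusted p = 0.98) and APOL6 by -0.17 ± 0.319 (adjusted p = 0.755). In Caco2 APOL3 differed by -0.42 and did not pass (adjusted p = 0.235).

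Against parental cells, 3 of the 9 genes differed after withdrawal in LIM1215 (21.1% of all genes did), 1 in SW48 (4.08%) and 0 by limma in Caco2 (5.28%), where 1, APOL6, had an unadjusted p under 0.05 (0.0323). In LIM1215 APOL1 was lower by -1.23 ± 0.288 (SE), at least 1.06-fold (adjusted p = 0.00359), which came to -0.31 and did not pass with dim values raised to background (adjusted p = 0.632), and APOL2 was lower by -0.63 ± 0.192, at least 1.42-fold (adjusted p = 0.0223). APOL6 was higher by 1.05 ± 0.319, 2.07-fold (adjusted p = 0.0211), with arrays that overlapped because parental replicate 3 read 11.07. The APOL2 call was lost without parental replicate 1 (adjusted p = 0.0531), parental replicate 2 (0.0608) or withdrawal replicate 1 (0.109), and the APOL6 call without parental replicate 1 (0.14), parental replicate 2 (0.177), withdrawal replicate 1 (0.0566) or withdrawal replicate 3 (0.0564). In SW48 GBP3 remained higher by 1.74 ± 0.308, at least 1.57-fold (adjusted p = 0.00147), with all withdrawal arrays above all parental arrays, and lower than in resistant cells by -2.5 (adjusted p = 1.69e-06). With dim values raised to background that SW48 difference was 0.65 and did not pass (adjusted p = 0.161). In Caco2 APOL6 read higher after withdrawal than before the challenge on all 3 arrays, by 0.73, which did not pass (adjusted p = 0.259).

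**Figure D3:**
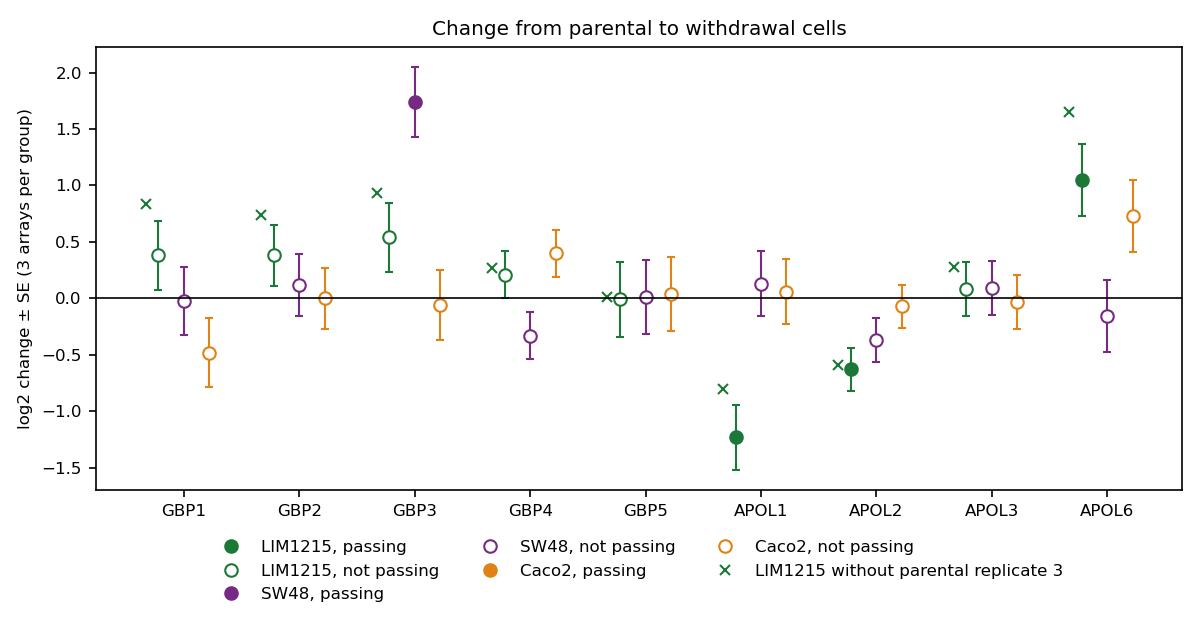
Change of each gene from parental to withdrawal cells on the log2 scale, with the SE of the fit (3 arrays per group) as bars; filled points passed at an adjusted p under 0.05, and crosses give LIM1215 without parental replicate 3. GBP3 in SW48 (1.74) and APOL6 (1.05), APOL1 (-1.23) and APOL2 (-0.63) in LIM1215 passed.

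The LIM1215 comparison with parental cells leans on parental replicate 3. This array exceeded the mean of the other 2 parental arrays by 1.4 for GBP1, 1.07 for GBP2, 1.17 for GBP3, 1.3 for APOL1 and 1.8 for APOL6, and by 0.08 to 0.57 for the other 4 genes. NK and T cell markers averaged 3.85 on it, against 3.88 and 3.86 on the other parental arrays. Without it, 6 of the 9 genes differed between withdrawal and parental cells, with 28.4% of all genes called. GBP1 was then higher by 0.84 (adjusted p = 0.0173), GBP2 by 0.74 (adjusted p = 0.0345), GBP3 by 0.93 (adjusted p = 0.0212) and APOL6 by 1.65 (adjusted p = 4.46e-06), while APOL1 was lower by -0.8 and APOL2 by -0.59. From parental to resistant, 8 of the 9 then rose, with 7.35% of all genes called higher.

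Between lines, the change from parental to withdrawal differed for 1 of the 9 genes in each pair: LIM1215 against SW48 (13.3% of all genes), LIM1215 against Caco2 (13.4%) and SW48 against Caco2 (5.31%). The first 2 were APOL1, by -1.36 ± 0.407 (SE, adjusted p = 0.0295) and -1.29 ± 0.407 (adjusted p = 0.0377). Both shrank with dim values raised to background, to -0.47 (adjusted p = 0.611) and -0.55 (adjusted p = 0.49) without passing, and APOL2 passed in their place for LIM1215 against Caco2 (-0.74, adjusted p = 0.0371). Without parental LIM1215 replicate 3 the APOL1 differences were -0.92 (adjusted p = 0.0558) and -0.86 (adjusted p = 0.077). APOL6 then passed instead, at 1.81 against SW48 (adjusted p = 9.17e-05) and 0.92 against Caco2 (adjusted p = 0.0256). GBP1 also passed then against Caco2 (1.33, adjusted p = 0.00768). The first APOL1 difference also missed the threshold without LIM1215 withdrawal replicate 1 (adjusted p = 0.081). It did so too without parental replicate 1 (0.0675), parental replicate 3 (0.0578), withdrawal replicate 1 (0.0502) or withdrawal replicate 3 (0.0702) of SW48. The second APOL1 difference also did so without LIM1215 withdrawal replicate 1 (adjusted p = 0.102) or without any 1 of the 6 parental and withdrawal Caco2 arrays (0.0579 to 0.0695). The third was GBP3, by 1.81 ± 0.436 (adjusted p = 0.0154), which without parental SW48 replicate 2 was 1.48 (adjusted p = 0.0519). With dim values raised to background the GBP3 difference was 0.42 and did not pass (adjusted p = 0.881).

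**Figure D4:**
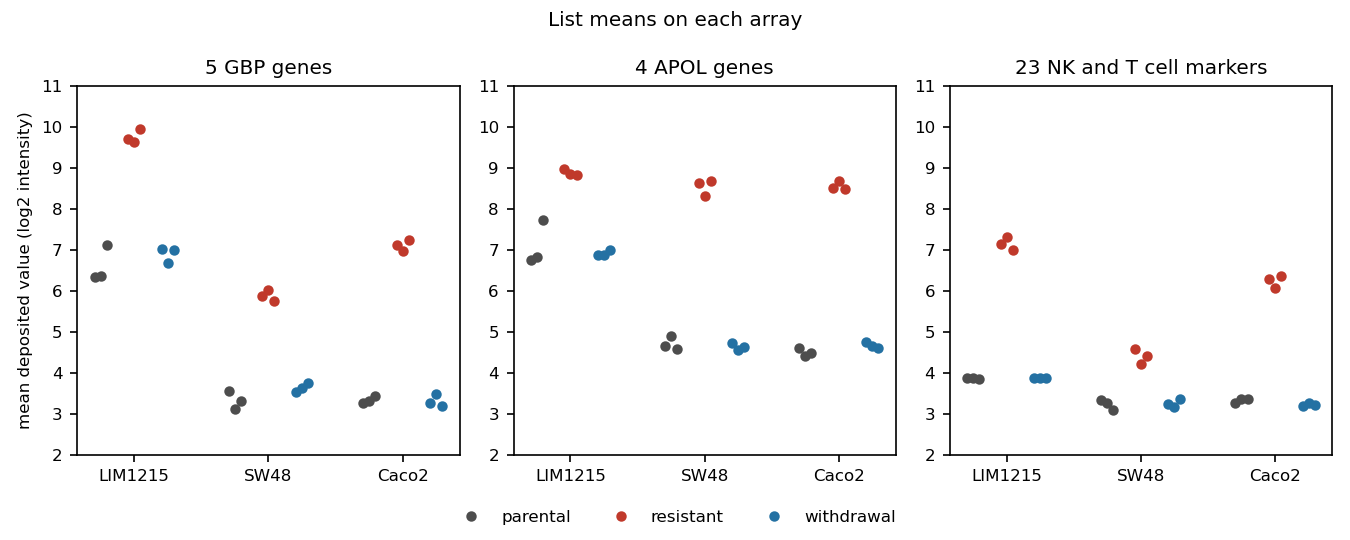
Mean deposited log2 value on each array of the 5 GBP genes, the 4 APOL genes and 23 NK and T cell markers. All 3 means are highest on the resistant arrays of each line, and the marker mean moves least in SW48, from 3.09 to 3.33 in parental to 4.22 to 4.57 in resistant cells.

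The interferon pathway, known to drive these genes, was read from listed genes outside the 2 families. Of all genes, 5.42% rose and 5.39% fell from parental to resistant in LIM1215, 10.9% and 11.8% in SW48, and 12.9% and 14.5% in Caco2. Of 19 measured interferon receptors, kinases and transcription factors, 5 rose and 2 fell from parental to resistant in LIM1215, 6 rose and 2 fell in SW48, and 13 rose and 1 fell in Caco2. IRF1, an activator of GBP transcription, rose by 3.13 in LIM1215 (adjusted p = 2.68e-09), 1.73 in SW48 (adjusted p = 1.3e-05) and 3.36 in Caco2 (adjusted p = 2.87e-10). IRF9, a transcription factor of the interferon response, rose by 4.36 in SW48 (adjusted p = 0.000293) and 5.71 in Caco2 (adjusted p = 7.98e-06). CIITA, the activator of HLA class II genes, rose by 2.55 in LIM1215 and by 1.9 in SW48, near background in both.

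Of 28 measured targets of interferon gamma, 16 rose and 1 fell in LIM1215, with a median change of 1.23. In SW48 16 rose and none fell (median 0.91), and in Caco2 22 rose and none fell (median 2.13). PSMB9, a subunit of the immunoproteasome, rose by 3.4 in LIM1215 (adjusted p = 3.47e-06), 4.97 in SW48 (adjusted p = 5.94e-09) and 6.76 in Caco2 (adjusted p = 1.65e-11). UBE2L6, which passes the modifier ISG15 to its targets, rose by 3.46 in LIM1215 and 5.86 in Caco2, and the peptide transporter TAP1 rose by 5.99 in Caco2. After withdrawal 3 of the 28 were higher and 2 lower than in parental LIM1215 cells, where 21.1% of all genes differed, 0 passed in SW48 by limma, where 3 had an unadjusted p under 0.05, and 1 was lower in Caco2. These lists, like the 9 genes, share the parental arrays within a line, and NK and T cell markers were higher in the same resistant arrays.

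Of 17 measured inflammasome and pyroptosis genes, partners of the GBPs, 2 rose and 4 fell in LIM1215 (median -0.09), 0 rose by limma and 3 fell in SW48 (median -0.02; 2 others were higher at an unadjusted p under 0.05), and 7 rose and 1 fell in Caco2 (median 0.19). In a list this small these counts are to be read beside the shares of all genes given above. In LIM1215 the inflammatory caspase CASP1 rose by 7.15 (adjusted p = 1.5e-18) and its inhibitory relative CARD16 by 6.7 (adjusted p = 3.47e-13), while the pore-forming GSDME fell by 2.61 near background. In SW48 the initiator caspase CASP8 fell by 2.09 (adjusted p = 1.8e-11) and the cytokine IL18 by 1.64 (adjusted p = 1.85e-05). In Caco2 the pore-forming GSDMB rose by 1.61 and IL18 by 1.55, both near background. Of 12 measured large GTPases outside the GBP family, 0 rose and 1 fell in LIM1215, 2 rose and 2 fell in SW48, and 2 rose and 3 fell in Caco2, to be read beside the same shares. The antiviral MX1 rose by 2.84 in SW48 (adjusted p = 0.00651) and its relative MX2 by 3.59 in Caco2, near background (adjusted p = 0.00625). Smaller changes passed too, at -0.83 for EHD4 in LIM1215 and at 0.77 for DNM1, -0.46 for MFN2 and -0.44 for ATL3 in SW48. In Caco2 they were -0.67 for IRGQ, -0.58 for OPA1 and -0.49 for MFN1.

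Other members of both families were near background in all 9 groups. GBP6 rose by 0.88 (adjusted p = 0.026) and APOL4 by 1.07 (adjusted p = 0.0281) in LIM1215, while neither passed in SW48 or Caco2. GBP7 and APOL5 passed in no line. How far probes of 1 family member read another was not tested.

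Genes beside the 2 clusters were read in the same way. On chromosome 1 the measured order is GBP3, GBP1, GBP2, GBP7, GBP4, GBP5 and GBP6. Of 12 flanking genes 2 rose in LIM1215 (5.42% of all genes did). In SW48 0 rose and 5 fell (10.9% and 11.8% of all genes), and in Caco2 2 rose and 3 fell (12.9% and 14.5%). LRRC8C, a subunit of volume-regulated anion channels, rose by 2.2 in LIM1215 (adjusted p = 1.01e-07) and 2.11 in Caco2 (adjusted p = 7.36e-08). Its neighbour LRRC8D fell by 1.43 in SW48 (adjusted p = 6.37e-07). Among 13 genes around or within the APOL cluster, changes ran from -0.26 to 0.48 in LIM1215. None passed there by limma, where 5.42% of all genes rose and 5.39% fell, and 2 had an unadjusted p under 0.05. In SW48 changes ran from -0.41 to 0.68, and 4 rose (10.9% of all genes did). In Caco2 they ran from -0.52 to 0.65, and 2 rose and 1 fell (12.9% and 14.5% of all genes). RBFOX2, a splicing regulator that lies between APOL5 and APOL3, read -0.01, 0.29 and -0.36 and passed in no line.

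**Figure D5:**
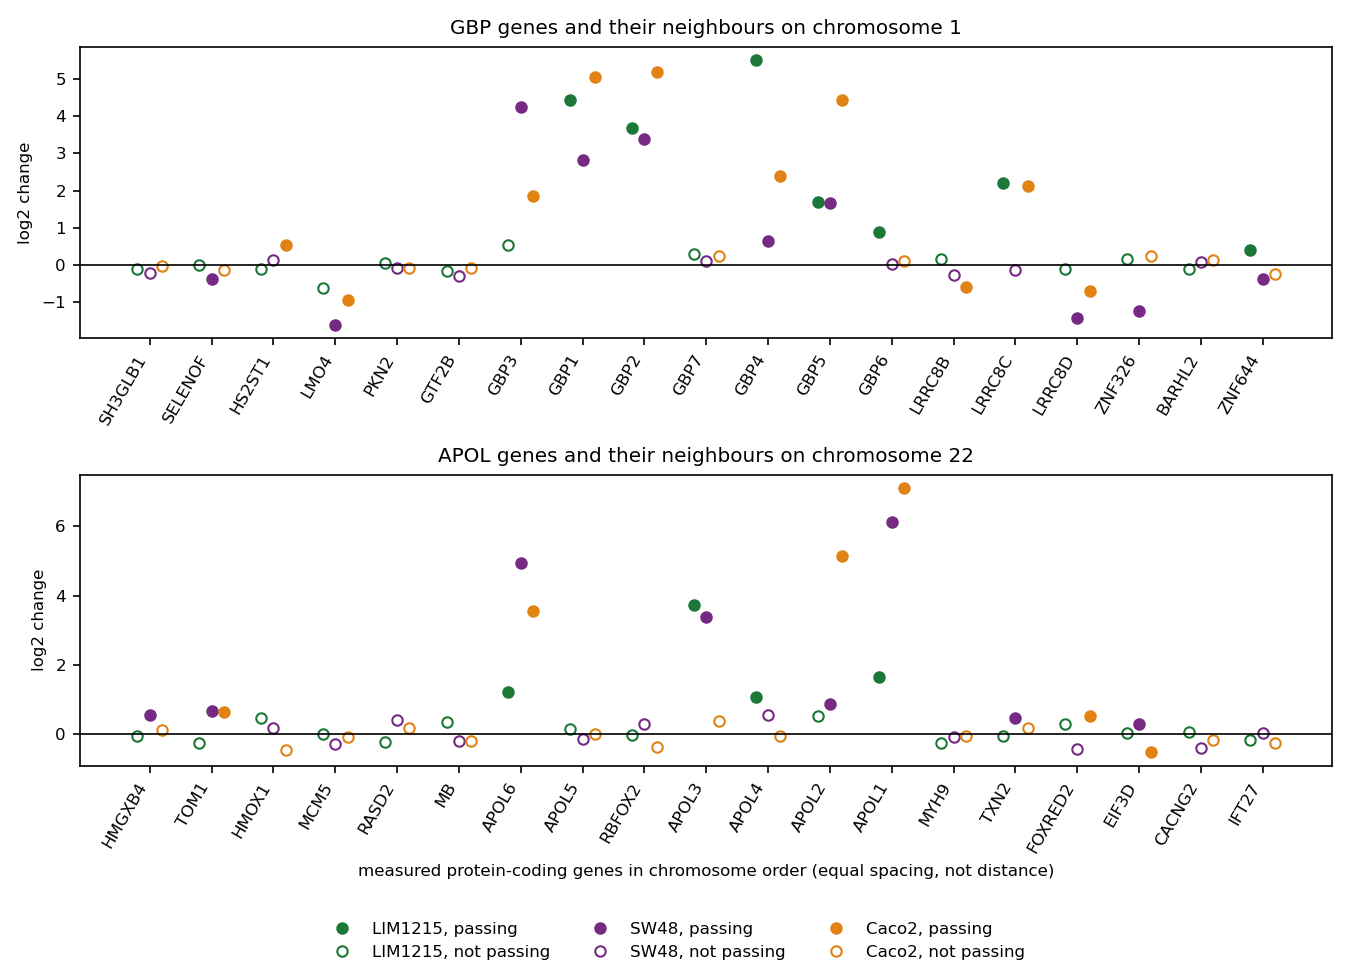
Change from parental to resistant cells on the log2 scale for the measured GBP and APOL genes and their nearest measured protein-coding genes, in chromosome order at equal spacing. Filled points passed at an adjusted p under 0.05; the tallest points belong to GBP and APOL genes, with LRRC8C (2.2 in LIM1215, 2.11 in Caco2) the highest of the neighbours.

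Over the 27 arrays, with each line's mean subtracted, the 9 genes moved together to different degrees. Pearson's r between pairs ran from 0.3 (GBP3 with GBP4) to 0.98 (GBP1 with GBP2). The genes most like the mean of the 9 by this measure were NCAM1 (0.988), IFI16 (0.985), SAMD9L (0.981), PSMB9 (0.98), GZMA (0.976), RNF213 (0.972), SYT11 (0.969), SH2D1B (0.966), PSME1 (0.963) and CCL5 (0.963). This list holds interferon-inducible genes (IFI16, SAMD9L, PSMB9, RNF213, PSME1) and genes of NK cells (NCAM1, GZMA, SH2D1B, CCL5). The arrays share the contrast between resistant and other cells, so these coefficients are descriptions.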

How the data were processed

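The deposited data are 1 series-wide set of values, with 24351 probe sets measured on 27 arrays, and they were read here as log2 intensities because of their range. Input, per the labels' protocols, was 250 ng of RNA made into labelled sense-strand cDNA. No source used here gives the software, background correction or normalization, so the log base was inferred. Since the distributions of the 3 lines differ, only changes were compared between lines.

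Of 21448 transcript probe sets, 17709 had a single gene symbol; the brightest was kept for 20 genes with several, giving 17687 genes, with no filter. Group means were estimated in 1 limma model (version 3.58.1, lmFit and eBayes, R 4.3.3; tables were read by data.table, release 1.17.8) with 18 residual and 4.12 prior degrees of freedom. Two-sided p-values were adjusted after Benjamini and Hochberg in each of 15 contrasts, 6 of them differences between lines, and 0.05 was the threshold. The fit was tested on simulated data. Figures used Python 3.11.15, pandas 2.3.3 and matplotlib 3.10.9. Precision is limited by having 3 arrays per group.

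The 9 genes, the lists and the rule for naming were chosen with earlier results of these data known. All 9 are named, with the other GBP and APOL rows, up to 4 genes per list with the largest passing change and arrays that do not overlap, the 10 genes most like their mean, and 6 neighbours on each side of a cluster. Alternatives were quantile normalization, centring on the median, a filter on dim genes, raising dim values to background, a fit per line, a replicate block, a trended robust prior, all transcript probe sets, a minimum change of 2-fold, and leaving out each array.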

Additional observations from a re-analysis of the deposited data

Results flagged for a closer look

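A difference between lines in the same log2 change passed the test of the difference itself (limma, adjusted p under 0.05) for 24 combinations of gene and pair of lines. For the change from parental to resistant, the change in LIM1215 minus that in SW48 was 1.62 for GBP1, -3.71 for GBP3, 4.87 for GBP4, -4.5 for APOL1 and -3.73 for APOL6, with adjusted p from 2.51e-11 to 0.00897. For the same change, LIM1215 minus Caco2 was -1.5 for GBP2, -1.33 for GBP3, 3.11 for GBP4, -2.76 for GBP5, -5.48 for APOL1, -4.61 for APOL2, 3.33 for APOL3 and -2.35 for APOL6, with adjusted p from 1.77e-11 to 0.0318. With dim values raised to background, that of GBP2 passed with the other sign (3, adjusted p = 1.04e-09). Those of GBP3 (0.4), GBP5 (0.26) and APOL3 (0.26) did not pass (adjusted p = 0.421 each). SW48 minus Caco2 was -2.23 for GBP1, -1.78 for GBP2, 2.38 for GBP3, -1.76 for GBP4, -2.77 for GBP5, -4.28 for APOL2, 2.98 for APOL3 and 1.38 for APOL6, with adjusted p from 5.61e-11 to 0.0266. With dim values raised to background, those of GBP1 (-0.56, adjusted p = 0.118) and GBP2 (0.15, adjusted p = 0.623) did not pass. Nor did those of GBP4, GBP5 and APOL3 (0.23, adjusted p = 0.472 each) or APOL6 (0.58, adjusted p = 0.471). Every array of GBP5 and APOL3, and every SW48 and Caco2 array of GBP4, was under background. The raised values given here for these genes are only differences of background level. For the change from parental to withdrawal, LIM1215 minus SW48 was -1.36 for APOL1 (adjusted p = 0.0295). LIM1215 minus Caco2 there was -1.29 for APOL1 (adjusted p = 0.0377). SW48 minus Caco2 there was 1.81 for GBP3 (adjusted p = 0.0154). With dim values raised to background none of these 3 passed, at -0.47, -0.55 and 0.42 (limma, adjusted p = 0.611, 0.49 and 0.881). The GBP1 difference between LIM1215 and SW48 did not pass after quantile normalization (1.22, adjusted p = 0.0746). The GBP3 difference between LIM1215 and Caco2 did not pass without LIM1215 parental replicate 3 (-0.94), resistant replicate 2 (-1.29) or resistant replicate 3 (-1.34), nor without parental replicate 1 (-1.31), 2 (-1.33) or 3 (-1.33) or resistant replicate 3 (-1.07) of Caco2. The APOL6 difference between SW48 and Caco2 did not pass without SW48 parental replicate 3 (1.11), SW48 resistant replicate 2 (1.32) or Caco2 parental replicate 1 (1.17).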

How the results depend on the processing

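Of 1131 values recomputed under other settings, 1071 stayed on their side of the threshold with no change of sign in a value that passed, and of 1134 recomputed without 1 array, 1083 did; among these, 26 and 44 values that passed in neither fit changed sign. The cause of the changes below was not tested. With values under background raised to it, which moves the median change of all genes by up to 0.417, the count of the 9 genes that passed became 4 for parental to resistant and 4 for resistant to withdrawal in SW48, 4 and 4 in Caco2, 0 for parental to withdrawal in SW48, 2 for SW48 against Caco2 in the change to resistant, and 0 for LIM1215 against SW48 and 0 for SW48 against Caco2 in the change to withdrawal. Of values that passed in either fit, the sign turned there for Caco2 withdrawal minus resistant in GBP2 (0.03), GBP3 (0.11), GBP4 (0.11) and GBP5 (0.11), for LIM1215 minus Caco2 in the change to resistant in GBP1 (1.88), GBP2 (3), GBP3 (0.4) and GBP5 (0.26), and for SW48 minus Caco2 in GBP2 (0.15), GBP4 (0.23) and GBP5 (0.23). Of these raised values, only those of GBP1 and GBP2 for LIM1215 minus Caco2 passed. Where every array compared is under background, as for GBP5, the raised value is only a difference of background level. With each line fitted alone, 1 gene passed in LIM1215 withdrawal minus parental. For LIM1215 against SW48 in the change to withdrawal, 2 passed among genes above background on 3 arrays and 3 with a trended robust prior, and for LIM1215 against Caco2, 0 passed after quantile normalization. The replicate block left 14 of 15 counts as they were and gave 0 for that last comparison; replicate numbers were not taken to pair the arrays, since 0 of 27 same-numbered pairs correlated above 0.1 (-0.041 to 0.075), while an array was closest to its own number in 27 of 54 comparisons, against an even share of 18. Leaving out 1 array gave counts of 6 to 8 for parental to resistant in LIM1215, 8 to 9 in SW48 and 8 to 8 in Caco2, of 1 to 6, 1 to 1 and 0 to 0 for parental to withdrawal, and of 7 to 7, 9 to 9 and 8 to 8 for resistant to withdrawal. Between lines the ranges were 5 to 5, 7 to 8 and 7 to 9 in the change to resistant, and 0 to 2, 0 to 2 and 0 to 1 in the change to withdrawal, for LIM1215 against SW48, LIM1215 against Caco2 and SW48 against Caco2.
Counts of all genes that passed moved by over 1.5 times as follows. Asking for a 2-fold change as well left 917 of 1913, 1068 of 3724, 1782 of 4942, 1260 of 4014, 177 of 722, 1211 of 3920, 1951 of 4842, 316 of 933, 1704 of 4364, 1829 of 3232, 2276 of 3760, 2620 of 4575, 1256 of 2356, 1355 of 2365 and 521 of 939 genes over the 15 contrasts, the 3 within LIM1215, SW48 and Caco2 in turn, then the differences. With each line fitted alone, 1230 against 1913 for LIM1215 resistant minus parental, 2227 against 3724 for LIM1215 withdrawal minus parental and 380 against 722 for SW48 withdrawal minus parental passed. With values under background raised, 3147 against 4842 for Caco2 resistant minus parental, 524 against 933 for Caco2 withdrawal minus parental, 2742 against 4364 for Caco2 withdrawal minus resistant and 611 against 939 for the change to withdrawal, SW48 minus Caco2 passed. Without 1 array, the counts that moved so far were 2260 to 2304 against 3724 for LIM1215 withdrawal minus parental, 448 to 474 against 722 for SW48 withdrawal minus parental, 1547 to 3863 against 2356 for the change to withdrawal, LIM1215 minus SW48 and 3960 against 2365 for the change to withdrawal, LIM1215 minus Caco2. Centring arrays on their median moved the share of passing genes that were higher from 48.6% to 61% for LIM1215 withdrawal minus resistant, from 43.6% to 57.5% for SW48 withdrawal minus parental, from 52.5% to 40.8% for LIM1215 minus SW48 in the change to resistant, and from 49.4% to 60.5% and 46.3% to 59.8% for LIM1215 minus Caco2 and SW48 minus Caco2 in the change to withdrawal. The dim genes limit what can be said of size: most GBP levels in SW48 and Caco2 lie near background.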
